A study of Mus musculus with 6 samples.

Results

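Granzymes are serine proteases that cytotoxic lymphocytes keep in secretory granules, and perforin is the granule protein that opens the membrane of a target cell so that they can enter. The proteases differ in the residues after which they cut and in the deaths they cause, so which of them a cell makes is part of its effector type. Mice have a family of granzyme genes beside the granzyme B gene that humans lack. The gene group taken here holds 9 of the 32227 genes counted, 8 granzyme genes and Prf1, chosen by symbol as members of the granzyme and perforin families. Gzmb encodes the protease that cuts after aspartate and starts apoptosis, and Prf1 the pore. Gzma and Gzmk encode neighboring proteases that cut after basic residues, and Gzmm one that cuts after methionine or leucine. Gzmc encodes a protease able to kill by itself once it is inside a cell, while Gzmd, Gzme and Gzmf encode close relatives with few known substrates.

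The study concerns PD-1, the inhibitory receptor encoded by Pdcd1, in CD8 T cells from their origin in the thymus onward. Cells were taken from thymus and spleen of untreated mice and from B16-OVA tumors, a melanoma line that carries ovalbumin, 12 days after injection, and were sequenced as single cells with PIPseq, in which each RNA molecule gets an identifier and is counted once (1 UMI). The Pdcd1fl/fl mice have floxed alleles and no Cre, and the Pdcd1 cKO mice carry E8I-Cre as well, which deletes the gene in CD8 T cells after positive selection, so that earlier thymocytes keep it. Each thymus and spleen library came from 1 mouse and each tumor library from 3 pooled mice, all C57BL/6, male and female, and over 8 weeks old.

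There were 6 libraries, 1 for each genotype label in each of 3 tissues, so there were no replicates and no test was made. Intervals are at 95% and cover counting error only. Values are given with the library labelled Pdcd1fl/fl (fl/fl) first and the library labelled Pdcd1 cKO (cKO) second. The thymus had 1067 and 2674 deposited barcodes, the spleen 6929 and 4963 and the tumors 457 and 561, with total counts of 6389966 and 19304377, 5935926 and 8964626, and 9401747 and 7924590 UMIs. After the cell filter of the study, 1067 and 2635, 1478 and 4928, and 456 and 561 cells were left. Cells with at least 1 UMI of Cd8a or Cd8b1 are called CD8-RNA cells and numbered 589 and 1753, 863 and 3885, and 344 and 512. Their median depths were 4353 and 5486, 1374 and 1686, and 13497 and 9580 UMIs, so a cell of a spleen library had the least chance to show a granzyme. The cells without CD8 RNA numbered 478 and 882, 615 and 1043, and 112 and 49.

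Pdcd1 RNA did not follow the labels. In CD8-RNA cells, Pdcd1 had 9 and 116 UMIs (thymus), 1 and 89 (spleen) and 702 and 799 (tumors). Scaled to 1000000 UMIs (CPM), Pdcd1 was at 2.46 and 9.16, 0.724 and 12.2, and 105 and 113. The log2 ratio of cKO over fl/fl was 1.90 (0.92 to 3.06), 4.07 (1.55 to 9.39) and 0.10 (-0.05 to 0.25). Pdcd1 was thus higher in the library labelled cKO in thymus and spleen, and the tumor libraries did not differ beyond counting error, except that Pdcd1 was -0.34 (-0.49 to -0.19) in the tumor cells low in melanoma RNA, which goes the way of the label. The deposited counts are per gene and not per exon, so RNA of a deleted allele cannot be told from that of a whole one. Every direction is therefore between labels and not between known genotypes.

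Each tissue had a granzyme of its own in the lead. Gzma led in thymic CD8-RNA cells, Gzmm in splenic ones and Gzmb in those of the tumors, under either label. Of the UMIs of the 9 genes, Gzma had 94.0% and 77.9% in the thymus, Gzmm 72.3% and 47.5% in the spleen and Gzmb 68.3% and 79.4% in the tumors. A UMI stands for a molecule whatever its length, so these are shares of molecules counted. Levels divided by length are given as well, and the lead was the same on either scale. Per kilobase of spliced length, Gzma stood at 562 and 257 CPM in the thymus, Gzmm at 95.7 and 122 in the spleen and Gzmb at 304 and 833 in the tumors. On this scale Gzma made up 96.0% and 84.6% of the sum of the 9 genes in the thymus, Gzmm 71.3% and 45.3% in the spleen and Gzmb 60.9% and 74.2% in the tumors. The rest was shared differently by label: in the spleen Gzma and Gzmk took more of it in the library labelled cKO, and in the tumors Gzmc went from 16.5% to 2.90% of the UMIs, or 22.5% to 4.16% per kilobase. Prf1, the longest RNA, changes place most with the scale, at 4.57% and 4.004% of the tumor UMIs and 2.30% and 2.11% per kilobase.

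**Figure D1:**
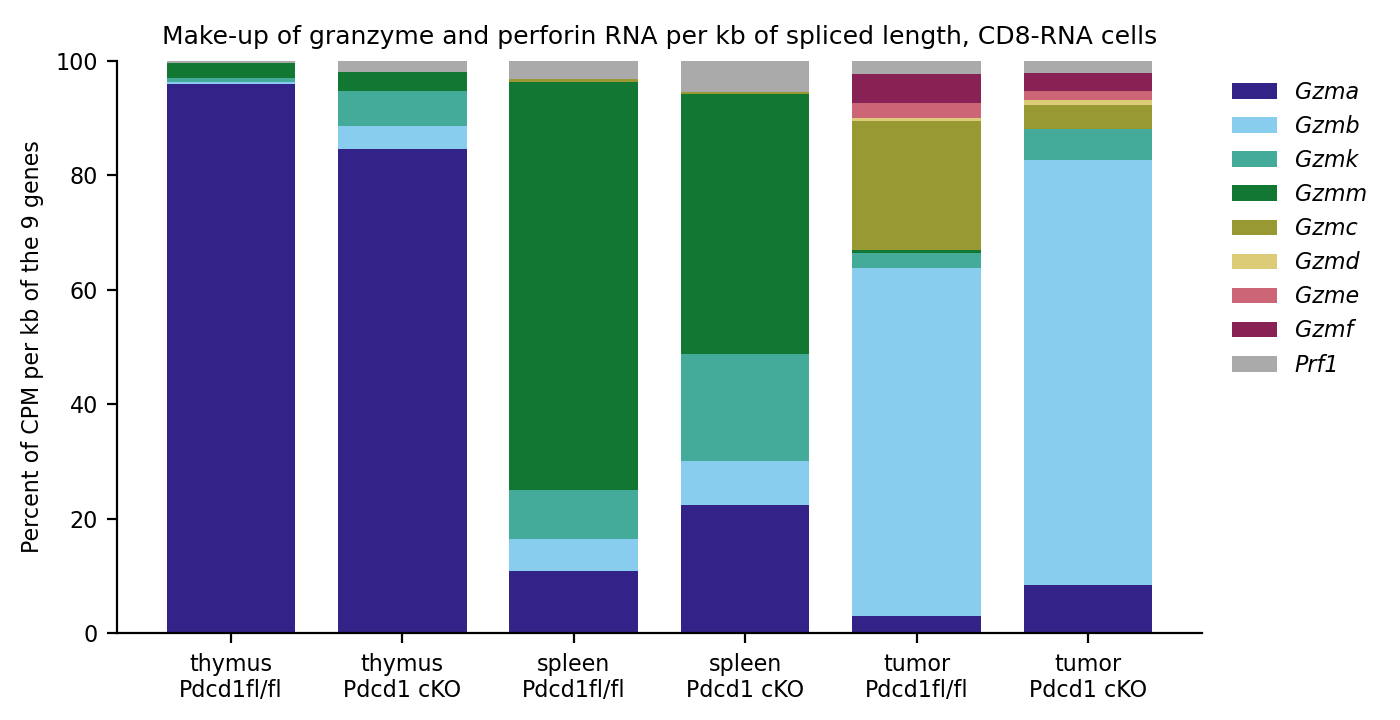
Percent of the summed CPM per kilobase of spliced length that each of the 9 genes took in the CD8-RNA cells of each library, 1 stacked bar per library. Gzma fills most of the thymic bars, Gzmm leads in the spleen and Gzmb in the tumors, and the band of Gzmc is wide only in the tumor library labelled fl/fl.

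Gzmb and Prf1, the protease and the pore of the classical killing pair, were highest in the tumors. Gzmb was at 2.74 (1.31 to 5.03) and 17.7 (15.4 to 20.2) CPM in the thymus, 10.9 (6.08 to 17.9) and 29.8 (25.9 to 34.0) in the spleen, then 437 (421 to 453) and 1197 (1172 to 1223) in the tumors. Prf1 was at 4.92 (2.92 to 7.78) and 15.2 (13.2 to 17.5), 10.9 (6.08 to 17.9) and 37.3 (33.0 to 42.0), and 29.2 (25.3 to 33.7) and 60.3 (54.8 to 66.3) CPM. Both genes were lowest in the thymus library labelled fl/fl and highest in the tumor library labelled cKO, and Gzmb spanned a far wider range than Prf1. In every tissue both were higher in the library labelled cKO. The log2 ratio of Gzmb was 2.69 (1.79 to 3.77) in the thymus, 1.45 (0.70 to 2.32) in the spleen and 1.45 (1.39 to 1.51) in the tumors. That of Prf1 was 1.63 (0.93 to 2.41), 1.78 (1.03 to 2.64) and 1.04 (0.80 to 1.30). Gzmb and Prf1 were therefore past 2-fold in all 3 tissues, though Prf1 not in thymic cells without Dntt (0.96) or low-melanoma tumor cells (0.61), with 10 and 18 UMIs behind the thymic values of the library labelled fl/fl.

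Gzma and Gzmk, the pair that cuts after basic residues, parted in the thymus. Gzma was at 500 (478 to 524) and 229 (221 to 237) CPM in the thymus, 13.0 (7.73 to 20.6) and 53.7 (48.5 to 59.2) in the spleen, then 13.3 (10.7 to 16.4) and 85.1 (78.4 to 92.2) in the tumors. Gzmk was at 3.83 (2.09 to 6.43) and 19.0 (16.7 to 21.6), 11.6 (6.62 to 18.8) and 52.3 (47.2 to 57.8), and 12.7 (10.2 to 15.8) and 61.2 (55.6 to 67.2) CPM. Gzma was highest in the thymus under either label, whereas Gzmk was highest in the spleen and tumor libraries labelled cKO and lowest in the thymus library labelled fl/fl. In spleen and tumors both genes were higher in the library labelled cKO, and the thymus was the tissue where Gzma went the other way. The log2 ratio of Gzma was -1.13 (-1.21 to -1.04) in the thymus, 2.04 (1.36 to 2.81) in the spleen and 2.67 (2.35 to 3.01) in the tumors. That of Gzmk was 2.31 (1.54 to 3.21), 2.17 (1.46 to 2.996) and 2.26 (1.92 to 2.62). Gzmk was thus higher by much the same factor in all 3 tissues. The thymic fall of Gzma was past 2-fold with totals of all UMIs, and kept its direction but not the 2-fold call with totals that leave out mitochondrial, ribosomal protein and Malat1 UMIs (-0.92) or with a median of ratios (-0.95). The 2-fold call was also lost in thymic cells without Dntt (-0.59). Of the 18 Gzma UMIs in the spleen library labelled fl/fl, 10 lay in 1 cell, and without the top cell of each library the splenic log2 ratio was 3.14, a step chosen after the values were seen.

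Gzmm, the protease that cuts after methionine or leucine, was a gene of the spleen. It was at 20.5 (16.1 to 25.7) and 12.8 (10.9 to 14.9) CPM in the thymus, 123 (105 to 143) and 157 (148 to 167) in the spleen, then 4.20 (2.79 to 6.07) and 1.13 (0.488 to 2.23) in the tumors. Gzmm was thus highest in the spleen and lowest in the tumors, where Gzmb was highest. The log2 ratio of cKO over fl/fl was -0.68 (-1.09 to -0.27) in the thymus, 0.35 (0.12 to 0.60) in the spleen and -1.89 (-3.24 to -0.72) in the tumors. Only the tumor value was past 2-fold, and it rests on 28 and 8 UMIs.

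Gzmc, Gzmd, Gzme and Gzmf, the neighbors of Gzmb, were read almost only in the tumors. Gzmc had 0 and 1 UMIs in the thymus and 1 and 7 in the spleen. Gzme had 1 UMI in the thymus library labelled cKO and 0 in the other 3 libraries of thymus and spleen, and Gzmd and Gzmf had 0 in all 4, where a floor of 3 UMIs would be 0.821 and 0.237 CPM in the thymus and 2.17 and 0.410 in the spleen, and the exact intervals reach 1.009 and 0.291, and 2.67 and 0.504. In the tumors Gzmc was at 105 (97.6 to 113) and 43.7 (38.9 to 48.8) CPM, Gzmd at 2.10 (1.15 to 3.52) and 9.04 (6.97 to 11.5), Gzme at 12.4 (9.91 to 15.4) and 16.3 (13.4 to 19.5) and Gzmf at 23.2 (19.7 to 27.2) and 33.6 (29.5 to 38.2). These genes did not move together between the labels. Gzmc fell, with a log2 ratio of -1.27 (-1.47 to -1.07), while Gzmd rose, at 2.11 (1.26 to 3.06). Neither call held throughout, since Gzmc was at -0.25 (-0.78 to 0.29) without the cells that hold markers of another lineage, and Gzmd after thinning had 0 and 5 UMIs, a lower bound of 0.16. Gzmf was 0.53 (0.24 to 0.83) higher without reaching 2-fold, and for Gzme, at 0.38 (-0.04 to 0.81), no difference was detectable at this depth. A few cells held much of this RNA: 5 cells carried 50% of the 702 Gzmc UMIs of the library labelled fl/fl, 1 of them 142 UMIs, and 29 of the 64 Gzmd UMIs of the library labelled cKO were in 1 cell.

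**Figure D2:**
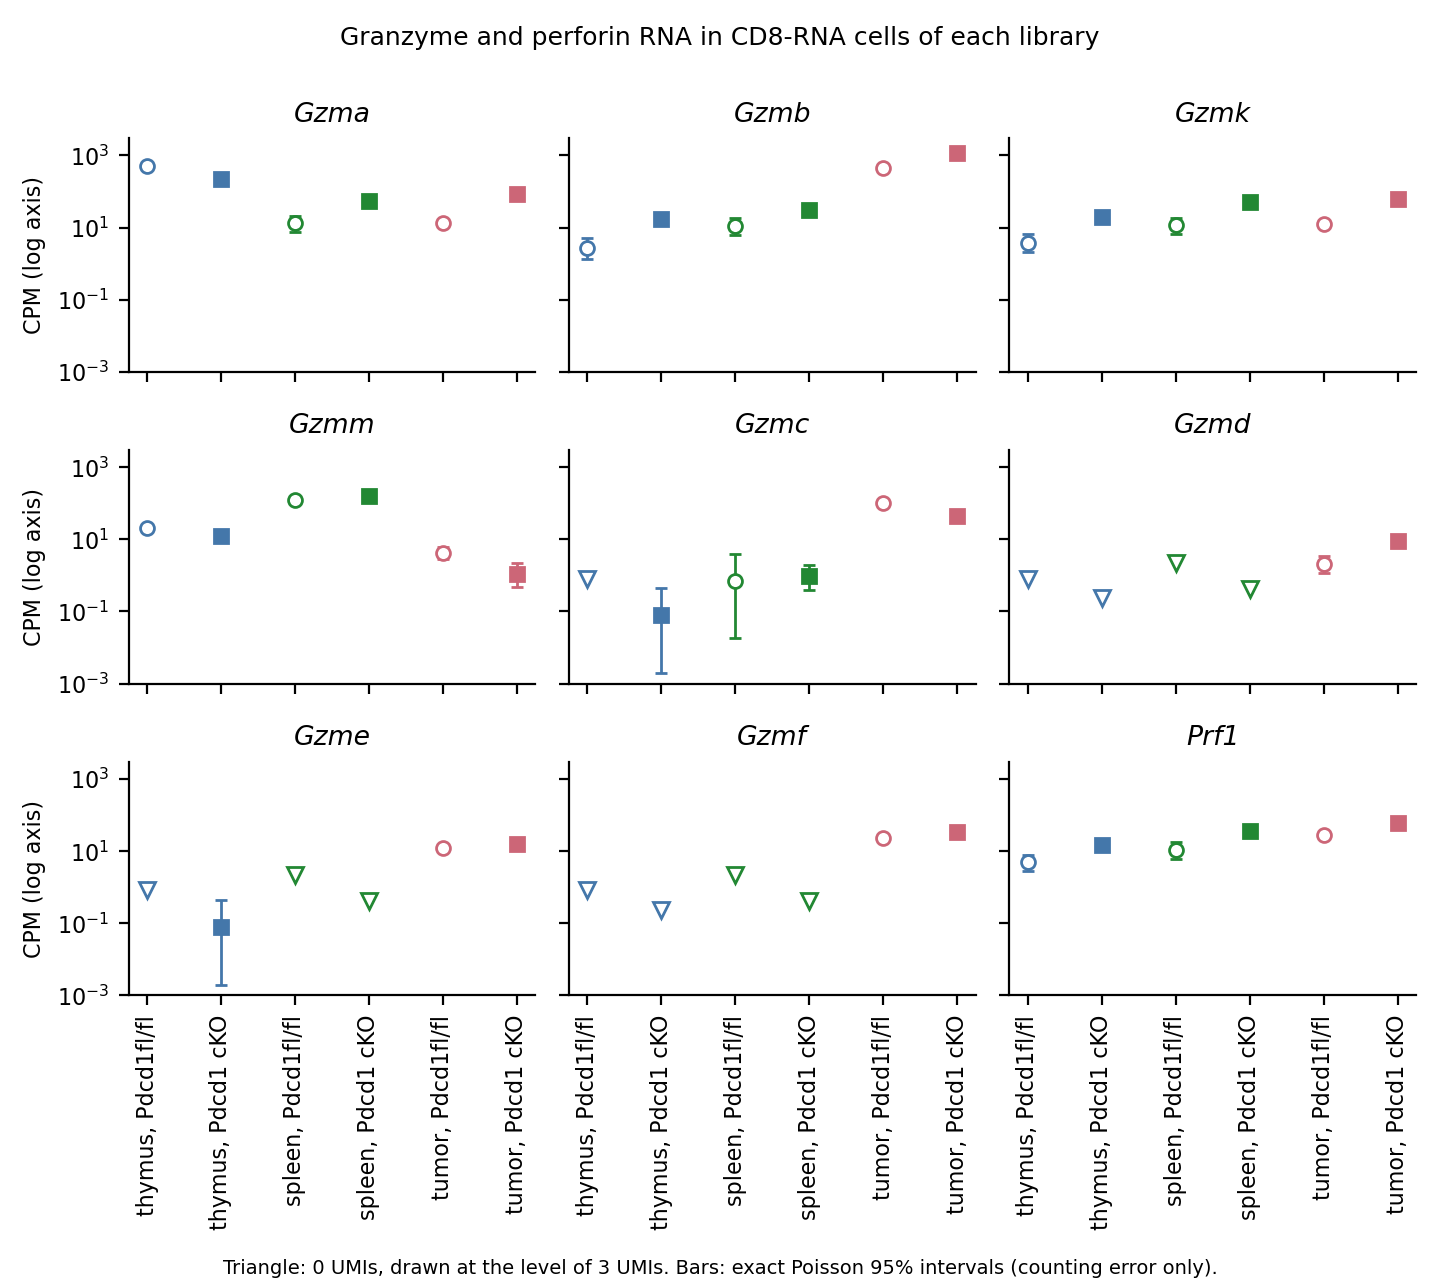
CPM on a log axis of each of the 9 genes in the CD8-RNA cells of the 6 libraries, with open circles for fl/fl, filled squares for cKO and bars for 95% Poisson intervals. Triangles stand at the level of 3 UMIs where a library had 0. Gzma is highest in the thymus, Gzmm in the spleen and the other 7 genes in a tumor library, with Gzmk as high in the spleen library labelled cKO within counting error.

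Added up, the 9 genes were lower in the thymus and higher elsewhere in the library labelled cKO. The sum was 532 (509 to 557) and 294 (284 to 303) CPM in the thymus, 170 and 331 in the spleen, then 640 and 1507 in the tumors. The log2 ratios were -0.86 (-0.94 to -0.78), 0.96 (0.77 to 1.16) and 1.24 (1.18 to 1.29), and only that of the tumors was past 2-fold. The thymic sum is Gzma in the main, so it hides the rise of Gzmb, Gzmk and Prf1.

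Counting members gives a different picture from adding them up. In the thymus, 5 members had at least 20 UMIs over both libraries, of which 3 were at least 2-fold higher (Gzmb, Gzmk and Prf1) and 1 lower (Gzma) in the library labelled cKO, where 6.46% of 13137 genes were as much higher and 6.56% as much lower. In the spleen, Gzma, Gzmb, Gzmk and Prf1 were higher and no member was lower, 4 and 0 of 5, beside 10.8% and 2.89% of 11507 genes. In the tumors, Gzma, Gzmb, Gzmk, Gzmd and Prf1 were higher and Gzmm and Gzmc lower, 5 and 2 of 9, beside 7.24% and 9.99% of 13270 genes. The members called higher in thymus and spleen, and Gzmd in the tumors, had 10 to 18 UMIs under the label fl/fl. They reached 20 UMIs only through the library labelled cKO, as tumor Gzmm (28 and 8 UMIs) did through the other. The same rule holds for the genes at large, and no difference from them is drawn. Gzmb, Gzmk and Prf1 were higher in all 3 tissues, Prf1 not by 2-fold in each narrower class of cells. The median log2 ratio of the members with at least 20 UMIs was 1.63, 1.78 and 1.04, and that of all such genes was -0.15, 0.18 and -0.15. Other totals moved the ratios of all genes by 0.20 and 0.18 (thymus), -0.13 and -0.17 (spleen) and -0.03 and 0.14 (tumors), in the order of the alternatives named for Gzma, and reversed no member.

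The tumor libraries held melanoma RNA, and its share differed between the labels. Gzmb was lower in CD8-RNA cells rich in it, with 10.96 and 38.6 CPM in 65 and 39 cells (in 24 and 25 of them at full depth) in which Pmel, Mlana, Tyr, Tyrp1 and Dct summed to at least 1000 CPM. These cells had median depths of 42137 and 38011 UMIs and held 43.8% and 23.8% of the UMIs of CD8-RNA cells. The other 279 and 473 cells, a class defined after the data were seen, had median depths of 11109 and 9177 UMIs, and their Gzmb was at 769 and 1559 CPM, Gzma at 23.2 and 109, Gzmk at 21.1 and 79.4 and Prf1 at 51.8 and 79.0. Without the melanoma-rich cells the rises were smaller and the fall of Gzmc larger. The log2 ratios were 1.02 for Gzmb, 2.23 for Gzma, 1.91 for Gzmk, 1.62 for Gzmd, 0.61 for Prf1, -0.07 for Gzme, 0.10 for Gzmf, -2.11 for Gzmm and -1.70 for Gzmc. Of the 9 members, 4 were still at least 2-fold higher (Gzma, Gzmb, Gzmk and Gzmd) and 2 lower (Gzmm and Gzmc), beside 11.2% and 4.31% of 11055 genes, while the rise of Prf1 dropped under 2-fold and the sum stood at 0.80 (0.75 to 0.86). Pdcd1 was at 186 and 147 CPM in these cells, the log2 ratio of -0.34, so a difference beyond counting error was seen only without the melanoma-rich cells.

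The thymic libraries differed in how many of their cells were immature. Dntt, which marks thymocytes that still rearrange receptor genes, was read in 349 (59.3%) and 797 (45.5%) of the CD8-RNA cells. Gzma went with it, at 620 and 309 CPM in cells with a Dntt UMI and 166 and 111 in the 240 and 956 cells without. Gzma was also higher in cycling cells, those with a UMI of Mki67 or Top2a, at 612 and 325 CPM against 216 and 105 in the others, while Gzmm was lower in them, at 9.52 and 8.25 against 48.6 and 18.7. In the cells without Dntt, a class also chosen after the data were seen, the log2 ratio of Gzma was -0.59 and that of the sum -0.23 (-0.43 to -0.02). Gzmb at 1.95 and Gzmk at 1.75 were still at least 2-fold higher, Prf1 at 0.96 was not, and Gzmm at -1.499 was lower, 2 and 1 of 5 members, beside 4.53% and 10.6% of 10598 genes. Within cells with Dntt the log2 ratio of Gzma was -1.002 (-1.09 to -0.91), and the part of the Dntt share in the thymic ratio was not tested.

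The share of cells with a UMI was compared after each cell had been thinned to 1000 UMIs, because the libraries differ in depth. Gzma was read in 25.8% (22.3 to 29.5) and 10.4% (9.05 to 12.0) of thymic CD8-RNA cells, 0.463% and 4.02% of splenic ones and 1.45% and 6.64% of those of the tumors. Gzmb was read in 0.170% and 2.45%, 0.927% and 2.75%, and 27.3% (22.7 to 32.4) and 51.8% (47.3 to 56.2). Gzma was thus the granzyme read in most thymic cells with any and Gzmb that of tumor cells, without allowance yet for free RNA. Gzmm was read in 2.21% and 1.37% of thymic, 9.97% (8.05 to 12.2) and 11.3% (10.3 to 12.4) of splenic and 0.291% and 0% of tumor cells, the last being 0 of 512 cells, with a floor of 0.586% and an exact interval up to 0.718% that hold for reading at 1000 UMIs alone, since 6 of these cells read Gzmm at full depth. Gzmk was read in 0.679% and 2.40%, 1.39% and 5.51%, and 0.872% and 5.47%, and Prf1 in 1.02% and 2.11%, 0.927% and 3.63%, and 4.36% and 7.62%. Gzmk and Prf1 were read in more cells of the library labelled cKO in every tissue, though for Prf1 the intervals overlapped in thymus and tumors. In the tumors Gzmc was read in 6.98% and 2.15% of cells, Gzmf in 2.33% and 4.49%, Gzme in 1.45% and 1.76%, and Gzmd in 0 of 344 cells (a floor of 0.872% and an exact interval up to 1.07% at 1000 UMIs, with 10 cells at full depth) and 0.586%. At least 1 member was read in 29.7% and 17.1% of thymic, 13.1% and 24.5% of splenic and 33.7% and 58.6% of tumor cells. At full depth, Gzmb was read in 58.1% and 87.3% of tumor CD8-RNA cells and Gzma in 57.4% and 34.3% of thymic ones.

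Free RNA was gauged in cells of types that should lack the genes, and cells with NK markers are given beside them for comparison. In the tumors, Gzmb was read in 0 of 31 thinned cells with macrophage markers and no CD8 RNA under the label fl/fl, which allows up to 11.2% by the exact interval, and in 4.55% of 22 under the label cKO, at median depths of 10127 and 8017 UMIs. In the melanoma-rich CD8-RNA cells it was read in 1.54% and 2.56% of thinned cells, against 33.3% and 55.8% of the others. At full depth, at medians of 42137 and 38011 UMIs, 36.9% and 64.1% of the melanoma-rich cells read it. In cells with melanoma markers and no CD8 RNA, Gzmb was in 1% (0.0253 to 5.45) of 100 thinned cells under the label fl/fl. Under the label cKO it was in 12.9% (3.63 to 29.8) of 31. The 33.3% and 55.8% of the other CD8-RNA cells were above each thinned share given here. Depths differed, and how much of the tumor Gzmb RNA was free was not tested. In the thymus library labelled cKO, Gzma was read in 11.1% (3.11 to 26.1) of 36 cells with mast cell markers and no CD8 RNA, at a median depth of 9580 UMIs and 76.4 CPM. In 24 cells of that library with B cell markers and no CD8 RNA, at a median depth of 13119 UMIs, Gzma was at 282 CPM (230 to 343) and in 16.7% of thinned cells. In 27 cells with NK markers and no CD8 RNA, at a median depth of 5395 UMIs, Gzma was at 56.6 CPM (27.1 to 104) and in 3.70% (0.0937 to 19.0). NK cells can make granzymes, and Gzmb was at 243 CPM in these 27 cells, so they are no gauge of free RNA. These classes are small, and the share of 10.4% in CD8-RNA cells lay within the interval of each, while the level of 229 CPM was above those of the mast cell and NK classes and not above that of the B cell class. Under the label fl/fl, 29 CD8-RNA cells with B cell markers (median depth 8009 UMIs) had Gzma at 531 CPM and in 17.2% (5.85 to 35.8). Under the label cKO, 40 such cells (median depth 8327 UMIs) had Gzma at 507 CPM (451 to 569), above the 229 CPM of its CD8-RNA cells. How much of the thymic Gzma RNA was free was not tested. Within each thymic library Gzma was not evenly spread, since cells with Dntt had 620 and 309 CPM and those without 166 and 111. Gzmb was read in 0 of the 36 thinned cells with mast cell markers, whose exact interval reaches 9.74%, and had 1 UMI in them at full depth. In the spleen library labelled cKO, Gzmm was read in 14.3% (4.03 to 32.7) of 28 CD8-RNA cells with B cell markers, at a median depth of 2427.5 UMIs, which did not differ beyond counting error from the 11.3% of all its CD8-RNA cells, and these 28 cells hold CD8 RNA themselves.

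Cells without CD8 RNA were set beside the CD8-RNA cells of the same library. In the thymus they read Gzma at 642 and 239 CPM, as high as CD8-RNA cells or higher, with a log2 ratio of -1.42 (-1.52 to -1.32). Gzmb there was at 2.19 and 14.4 CPM, with a ratio of 2.71 (1.53 to 4.19), and in the library labelled cKO 27 cells with at least 2 NK markers held 43 of the 93 Gzmb UMIs, a part in the ratio that was not tested. Gzmk was at 7.31 and 4.94 CPM, a ratio of -0.57 (-1.42 to 0.32), but 9 of its 20 UMIs under the label fl/fl lay in 1 cell, and the share of cells with Gzmk ran the other way, at 1.67% and 3.40%. Thymic Gzma was therefore not tied to CD8 RNA, and no direction is drawn for Gzmk in these cells. In cells without CD8 RNA that held at least 2 markers of gamma-delta T cells, Gzma was at 700 and 266 CPM and in 36.7% and 20.5% of 229 and 464 thinned cells. In the 168 and 338 CD8-RNA cells with such markers, Gzma was at 659 and 398 CPM. They held 1058 of the 1829 and 1656 of the 2899 Gzma UMIs of thymic CD8-RNA cells, and their part in the ratio was not tested. In the spleen the cells without CD8 RNA had Gzmm at 139 and 122 CPM, beside 123 and 157 in CD8-RNA cells, and Gzma at 2.38 and 66.9, beside 13.0 and 53.7, so Gzmm under the label cKO was lower in them beyond counting error and its ratio of -0.19 (-0.53 to 0.15) had no clear sign. They had Gzmk at 17.9 and 63.8 and Prf1 at 17.9 and 38.8, and 63.9% and 83.0% of them held at least 2 CD8 T cell markers. In the tumors they read less Gzmb, 12.9 and 166 CPM and 2.68% and 16.3% of thinned cells, but 77 of 112 and 21 of 49 of them were melanoma-rich, and the other 35 and 28 had Gzmb at 64.7 and 455 CPM, still under the 769 and 1559 of low-melanoma CD8-RNA cells. Under the label cKO, 77 of the 122 Gzma UMIs lay in 1 cell. Gzmb in the tumors was thus lower without CD8 RNA, as Gzma in the thymus was not.

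Which granzymes shared a cell was asked next. Among thinned CD8-RNA cells, at least 2 members were read in 0.170% and 1.65% (thymus), 0.695% and 2.65% (spleen) and 9.59% and 17.6% (tumors). In the thymus library labelled cKO, 27.9% of cells with Gzmb also read Gzma, against 171 of the 1710 cells without Gzmb (8.62% to 11.5%). At full depth these shares were 43.0% (33.5 to 52.9) and 33.7% (31.4 to 36.1), so their intervals overlapped. Gzmk was then read in 37.4% (28.2 to 47.3) of cells with Gzmb, against 7.11% (5.91 to 8.46). In the spleen library labelled cKO, 14.1% of cells with Gzma read Gzmk, against 5.15%, but only 3.85% read Gzmm, against 11.6%. Gzma and Gzmk thus shared splenic cells more often than cells without Gzma did, and Gzmm was read less often with Gzma, but not with Gzmk, Gzmb or Prf1. Without thinning, Gzmm was read in 17.4% of cells with Gzma, against 18.7%, so its lower share there held at 1000 UMIs alone. Of 10 pairs with enough thinned cells in each of these libraries, 1 in the thymus and 2 in the spleen were read together more often beyond their intervals. The splenic pair of Gzma and Gzmm was read together less often. At full depth 4 of 10 pairs in each library were read together more often and 0 less often.

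In the tumors Gzmb was the common partner of the other members. The low-melanoma CD8-RNA cells were thinned to 5000 UMIs for this, a depth chosen after the data were seen, and at least 2 members were read in 34.8% (29.2 to 40.7) and 58.1% (53.5 to 62.6) of the 279 and 473 cells, with up to 6 in 1 cell. Under the label fl/fl, all 30 cells with Gzmf read Gzmb, against 49.0% of those without Gzmf, and 90.2% of cells with Gzmc did, against 46.5%. Gzmc was read in 66.7% of cells with Gzmf, against 12.4%. Prf1 also went with Gzmb, which was read in 93.8% of cells with Prf1 under the label fl/fl, against 46.3%, and in 95.9% under the label cKO, against 79.8%. Of the cells with Prf1, 46 of 48 and 119 of 121 read a granzyme. Under the label fl/fl, Gzmc and Gzmf thus lay mostly within the cells that read Gzmb and were often read together, while Gzmd had too few cells to be paired. Under the label cKO, 52.4% of 21 cells with Gzme read Gzmf, against 8.85%, and 57.1% read Prf1, against 24.1%, whereas Gzmc and Gzme with Gzmb were within their intervals, and 42.2% of cells with Gzma read Gzmk, against 24.5%. Of 10 and 21 pairs, 6 and 8 were read together more often beyond their intervals and none less often.

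**Figure D3:**
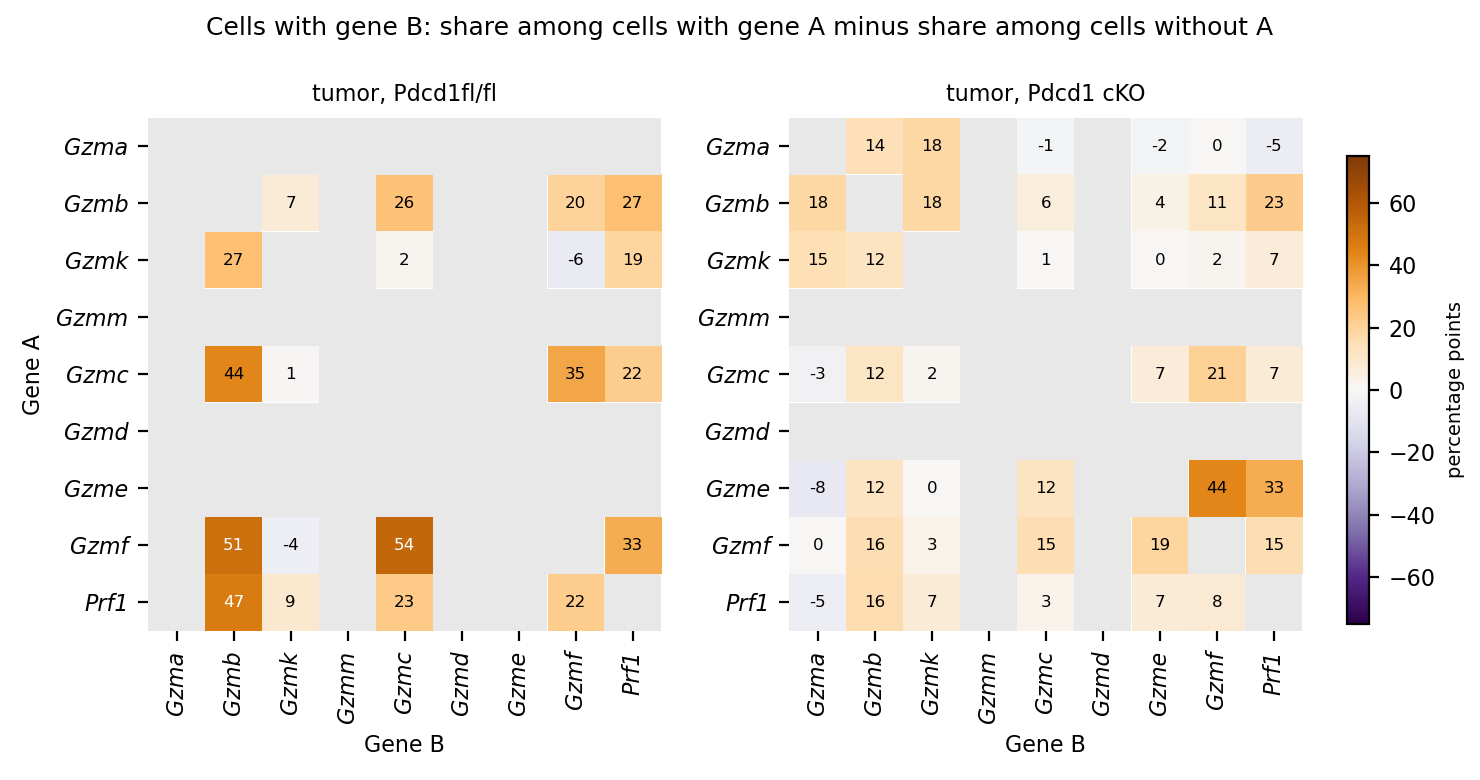
Percentage points by which the share of cells with gene B (columns) is higher among cells with gene A (rows) than among cells without A, in low-melanoma tumor CD8-RNA cells thinned to 5000 UMIs. Grey marks the diagonal and pairs with fewer than 20 cells on a side. The highest values join Gzmf, Gzmc, Prf1 and Gzmb under the label fl/fl and Gzme with Gzmf under the label cKO.

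Cells with a UMI of Pdcd1 or Tox were compared with the other CD8-RNA cells of their library. Gzma, Gzmb and Gzmk were higher beyond counting error in cells with Pdcd1 in all 4 libraries with enough cells, and Prf1 in 3 of 4. Gzmb was at 106 against 13.5 CPM in the thymus library labelled cKO, and at 891 against 46.1 and 1671 against 618 in the tumors, where melanoma-rich cells were not left out. Gzmk in the spleen library labelled cKO was at 145 against 49.96 CPM. Gzmb, Gzmk and Prf1 were also higher in cells with Tox in 4 of 4 libraries. Where there were enough cells, Gzmb and Gzmk were thus higher in cells with either gene. Gzma was higher in cells with Tox in 3 of 5 libraries, and Gzmm behaved in another way, lower in cells with Tox in 3 of 5 libraries. Depth differed between the sides of such splits, as for Havcr2 in the tumors (medians of 18960.5 against 10242.5 and 13470.5 against 8423 UMIs), where Gzmb was lower in cells with Havcr2, as in 3 of 4 libraries. Melanoma-rich cells were not left out of the Havcr2 split either, and their part in it was not tested.

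The genes read most in the same cells as a member differed by member. Gzmb went with Nkg7, S100a4, S100a6, Ccl5 and Tmsb4x (mean phi of Nkg7 0.193 over 4 libraries), and Prf1 with Ccl5, S100a6, Bcl2a1d, Efhd2 and Esyt1 (Ccl5 0.102 over 3). Gzmk went with S100a4, Eomes, Ccl4, S100a6 and Rgs16 (S100a4 0.179 and Eomes 0.135 over 2 libraries), and Gzmm with S100a6, Ly6c2, Nkg7, Ccl5 and Lgals1 (S100a6 0.0950 over 2). Gzma went with Dynlt1b, Hmgb2, Prdx1, H2az1 and Hmgn2-ps (Dynlt1b 0.0938 over 4). S100a6 was among the first 5 for Gzmb, Gzmk, Gzmm and Prf1 and not for Gzma, whose phi with H2az1 ran from -0.0153 to 0.236 between libraries. Gzmc, Gzmd, Gzme and Gzmf were read in too few thinned cells to be ranked.

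The median of a wider granule list moved less than that of the members, at 0.34, 0.81 and 0.34 in log2, and at -0.06 in thymic cells without Dntt and 0.27 in low-melanoma tumor cells. Its 27 genes are those for granule storage, granzyme activation and release, serpins, Fasl, Gzmg, Gzmn and 6 transcription factors of effector cells, of which 26 were found by symbol and Vamp7 was not. Nkg7, a granule membrane protein, was at 306 and 410 CPM (thymus), 1283 and 1834 (spleen) and 897 and 1980 (tumors), with log2 ratios of 0.42, 0.52 and 1.14, so it passed 2-fold in the tumors alone, and there not in low-melanoma cells (0.70). Srgn, the proteoglycan that holds granzymes, had ratios of 0.20, -0.05 and 0.68, and Ctsc, which activates them, 0.20, 0.47 and 0.92. In low-melanoma tumor cells Srgn was at 0.27 and Ctsc at 0.59. In the thymus 8 of 22 genes with enough UMIs were at least 2-fold higher in the library labelled cKO and 0 lower, beside 6.46% and 6.56% of all genes: Serpina3g (4.04, from 2 and 114 UMIs), Prdm1 (2.00), Stx11 (1.87, from 3 and 38 UMIs), Fasl (1.64), Eomes (1.55), Tbx21 (1.51), Runx3 (1.30) and Id2 (1.13). In the spleen 8 of 22 were higher and 0 lower, beside 10.8% and 2.89%, namely Prdm1 (2.04), Serpina3g (2.01), Stx11 (1.84, -0.11 to 4.94, from 2 and 38 UMIs), Lamp2 (1.55), Zeb2 (1.53), Serpinb6b (1.38), Tbx21 (1.09) and Id2 (1.03). Tbx21, Prdm1 and Id2, transcription factors of effector cells, were called higher in thymus and in spleen, as were Gzmb, Gzmk and Prf1. Of these only Id2, with 276 and 159 UMIs, had at least 20 UMIs under the label fl/fl in both tissues. In thymic cells without Dntt only Stx11, Serpina3g, Fasl and Prdm1 kept the call, 4 of 22 beside 4.53% of all genes, and Tbx21, Id2, Eomes and Runx3 did not. In the tumors Ctsh (2.43), Gzmg (1.79, from 6 and 22 UMIs), Fasl (1.69), Gzmn (1.499, -0.03 to 3.31, from 5 and 15 UMIs) and Nkg7 (1.14) were higher and the serpin Serpinb9b (-1.42) lower, 5 and 1 of 26, beside 7.24% and 9.99%. In low-melanoma tumor cells Gzmg, Gzmn, Ctsh and Fasl were higher and Serpinb9b lower, 4 and 1 of 26, beside 11.2% and 4.31%. In the thymus Serpina3g, Stx11, Prdm1 (7 UMIs), Tbx21 (8) and Fasl (18) had under 20 UMIs under the label fl/fl. So did Stx11, Lamp2 (4), Prdm1 (7), Zeb2 (7), Serpina3g (8) and Serpinb6b (9) in the spleen, and Gzmg and Gzmn in the tumors. These genes had 20 UMIs only through the library labelled cKO, a rule that holds for all genes counted beside them. In all tumor CD8-RNA cells Tbx21 (0.45), Eomes (-0.13), Prdm1 (0.51), Runx3 (0.74), Zeb2 (-0.62) and Id2 (0.45) stayed under 2-fold, while Gzmb and Prf1 did not. In low-melanoma tumor cells these factors, in that order, were at 0.10, -0.52, 0.45, 0.32, 0.16 and 0.30. There Prf1 (0.61) was under 2-fold too, and Gzmb (1.02) was just past it.

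RNA of other cell types in CD8-RNA cells was summed over marker lists. The 7 CD8 T cell genes had 2820 and 3168, 3752 and 4641, and 2002 and 3383 CPM in thymus, spleen and tumors. NK cells and gamma-delta T cells can make granzymes of their own, although CD8 T cells had been isolated with magnetic beads, a step meant to remove them. The NK list (6 genes) had 12.0 and 16.7, 29.7 and 65.5, and 67.0 and 306 CPM, led by Klre1 except in the tumor library labelled cKO, where Fcer1g had 179, but Klre1, Fcer1g and Tyrobp are also read in effector CD8 T cells, and Ncr1 was at 0 in the thymus and spleen libraries labelled fl/fl. Tumor CD8-RNA cells with at least 2 NK markers, with melanoma-rich cells kept, had Gzmb at 908 and 1124 CPM in 24 and 114 cells. All tumor CD8-RNA cells had it at 437 and 1197 CPM and low-melanoma ones at 769 and 1559. The cells with NK markers were thus above both under the label fl/fl and below both under the label cKO. The gamma-delta list (5 genes) had 350 and 258 CPM in the thymus, led by Trdc with 150 and 99.8, then 10.1 and 27.7 in the spleen, then 4.95 and 12.9 in the tumors. The immature thymocyte list (6 genes, among them Cd4 and Il2ra, which mature T cells also read) had 543 and 370 CPM in the thymus, led by Dntt with 423 and 278, then 4.35 and 8.87, and 29.2 and 9.89. Melanoma genes (5) had 5.47 and 4.42, 2.17 and 2.87, and 6930 and 3949 CPM, led in the tumors by Dct with 2610 and Pmel with 1410. B cell genes (5), led by Ighm, had 162 and 107, 108 and 285, and 28.2 and 119.6, and macrophage genes (6) 4.92 and 5.21, 3.62 and 11.3, and 64.0 and 428. Stroma genes (4) had 73.3 and 12.2, 1.45 and 9.01, and 229 and 1.27, and granulocyte progenitor genes (4) 0 and 0.237, 0 and 83.6, and 2.55 and 0.848. Erythroid genes (4) had 0.547 and 7.11, 0 and 26.9, and 1.20 and 0.565, CD4 T cell genes (3) 2.19 and 3.79, 0.724 and 4.51, and 3.30 and 2.83, dendritic genes (5) 2.74 and 2.61, 5.07 and 5.19, and 1.95 and 2.69, and mast cell genes (5) 17.8 and 18.0, 3.62 and 5.46, and 3.599 and 3.39. What these cell types add to the ratios of Gzma and Gzmb was not tested beyond leaving out cells with such markers, and no doublet caller was run. The libraries shared 0 barcodes after the filter, and 2 before it between the spleen libraries.

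The members lie at 4 places of the mouse genome (GRCm39, GENCODE M39). Gzmb (ENSMUSG00000015437, chr14:56496295-56499717), Gzmc (ENSMUSG00000079186, chr14:56468857-56479211), Gzmf (ENSMUSG00000015441, chr14:56442720-56448874), Gzmd (ENSMUSG00000059256, chr14:56367013-56370065) and Gzme (ENSMUSG00000022156, chr14:56355083-56358082) share 1 locus of 144635 bases on the minus strand. The locus holds 7 granzyme genes, Gzmn and Gzmg being the others, and 0 other protein-coding genes. Gzma (ENSMUSG00000023132, chr13:113230355-113237524) and Gzmk (ENSMUSG00000042385, chr13:113308142-113362442) are neighbors on the minus strand. Gzmm (ENSMUSG00000054206, chr10:79524854-79531095) and Prf1 (ENSMUSG00000037202, chr10:61133546-61140461) lie far apart on the plus strand of another chromosome. The granzyme genes of the group have 5 exons and Prf1 has 3. In the spliced RNA, 23.1% of the 50-base windows of Gzmd, 25.1% of Gzme, 10.6% of Gzmf and 3.95% of Gzmc also occur in another gene, and none of Gzma, Gzmb, Gzmk, Gzmm and Prf1, while in the last 400 bases the shares are 16.2% for Gzmd, 19.1% for Gzme, 17.1% for Gzmf and 0% for Gzmc. The shares of Gzmg are 19.8% in the whole RNA and 17.9% in the last 400 bases, and those of Gzmn 7.04% and 18.8%. Reads of Gzmd, Gzme, Gzmf, Gzmg and Gzmn can therefore be lost or misplaced. Genes on the other strand overlap Gzmk (Gm59720 and Esm1), Gzmm (Gm68542), Gzmc (Gm24118) and Gzmf (Gm4022).

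Along the locus the level had an order, noticed after the values were seen. In low-melanoma tumor cells, from Gzmb through Gzmc, Gzmf, Gzmn, Gzmg and Gzmd to Gzme, the values were 536, 198, 44.4, 1.35, 1.76, 3.87 and 24.2 CPM per kilobase under the label fl/fl and 1086, 60.9, 47.6, 2.82, 4.49, 11.9 and 23.1 under the label cKO. In both libraries the level went down from Gzmb to Gzmn in the middle and up again to Gzme at the far end, and in CPM without division by length the order was the same. Gzmn had 5 and 15 UMIs and Gzmg 6 and 22, so the order of these 2, and under the label fl/fl that of Gzmd with them, is within counting error. Reads lost or misplaced among Gzmd, Gzme, Gzmf, Gzmg and Gzmn limit the order too.

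**Figure D4:**
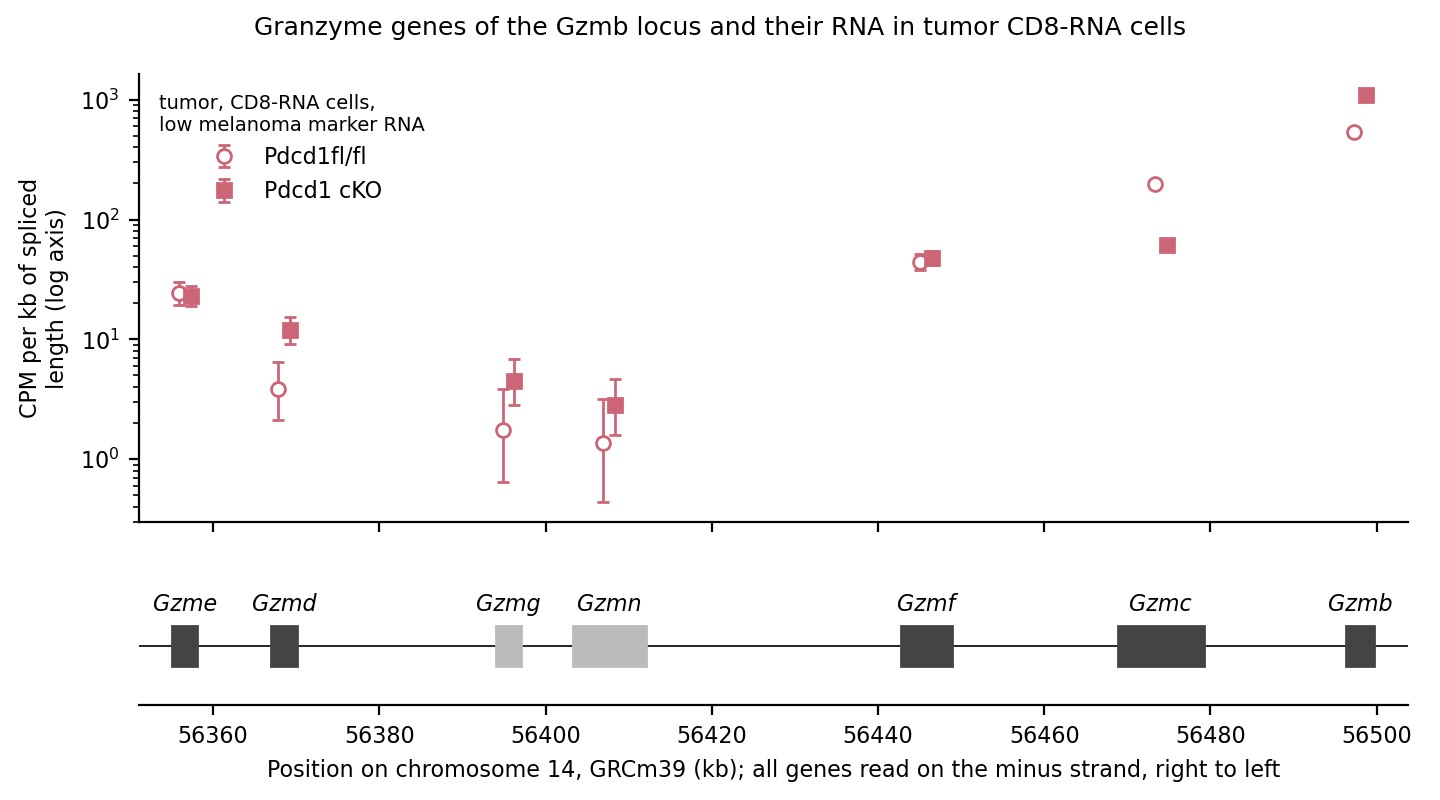
CPM per kilobase of spliced length on a log axis (top) for the 7 granzyme genes of the locus at their positions on chromosome 14 (bottom, kilobases, black for members), in low-melanoma tumor CD8-RNA cells, with open circles for fl/fl, filled squares for cKO and bars for 95% Poisson intervals. Gzmb at the right is highest, Gzmn and Gzmg are lowest, and Gzmc is the gene that stands lower under the label cKO beyond its intervals.

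The promoters of Gzmc, Gzmd, Gzme and Gzmf are near copies of each other and differ at a site. The windows shown have 110 bases of the minus strand, from the RefSeq promoter sequences of GRCm38.p6 (250 bases before the start to 50 after it), and each matches GRCm39 exactly and once, at chr14:56472120-56472229 for Gzmc, chr14:56370060-56370169 for Gzmd, chr14:56358093-56358202 for Gzme and chr14:56448895-56449004 for Gzmf. They are 88.2% to 95.5% identical to each other. Capitals mark the 8-base cyclic AMP response element, TGACGTCA, or the bases in its place, and a run of 20 bases that the 4 genes share.
Gzmc: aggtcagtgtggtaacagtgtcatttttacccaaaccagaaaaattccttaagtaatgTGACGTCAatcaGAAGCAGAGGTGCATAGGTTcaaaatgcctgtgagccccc
Gzmd: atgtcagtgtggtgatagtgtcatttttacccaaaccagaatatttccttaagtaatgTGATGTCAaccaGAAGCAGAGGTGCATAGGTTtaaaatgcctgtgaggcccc
Gzme: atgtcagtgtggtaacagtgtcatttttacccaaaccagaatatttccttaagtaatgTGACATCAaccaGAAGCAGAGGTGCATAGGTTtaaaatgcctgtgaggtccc
Gzmf: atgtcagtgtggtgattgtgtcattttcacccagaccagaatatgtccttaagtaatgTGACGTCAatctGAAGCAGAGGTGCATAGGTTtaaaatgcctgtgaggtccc
Gzmc and Gzmf have the element whole, as Gzmg does, and it occurs in 588 of 32851 mouse promoters (1.79%). Gzmd carries C4T and Gzme G5A in it, with positions counted from 1 at the 5′ end of TGACGTCA. Gzmc and Gzmf, with the whole element, were higher per kilobase than Gzmd and Gzme in both tumor libraries, but Gzmg, which also has it whole, was read at 1.76 and 4.49 CPM per kilobase in low-melanoma cells, within counting error of Gzmd under the label fl/fl. Under the label cKO, Gzmg was below Gzmd (11.9) beyond counting error. In both libraries it was also below Gzme (24.2 and 23.1). The window of Gzmc lies 6982 bases inside the annotated start of the gene.

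The promoter of Gzmb has a site that the other members lack. Its window is at chr14:56499790-56499889 on the minus strand, and capitals mark an AP-1 site, TGANTCA, and a pair of RUNX sites, TGTGGT.
Gzmb: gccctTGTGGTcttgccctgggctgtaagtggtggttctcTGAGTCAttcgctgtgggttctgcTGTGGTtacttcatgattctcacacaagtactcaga
TGANTCA was found in Gzmb alone among the 9 members and in 7.81% of all promoters, and TGTGGT in 8 of the 9, Gzmk lacking it, and in 16.8%, with both strands searched. Gzmc, Gzmd, Gzme and Gzmf have a pair of TGTGGT matches as Gzmb does. Among the motifs searched, TGANTCA was the one found in Gzmb and in no other member, and the rest of the sequence was not compared. A match is a description, not a site in use or a cause.

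Gzmb and Gzma levels rest on 1 library per label and tissue, so differences between mice cannot be told from differences between labels.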

How the data were processed

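Reads were aligned by the authors to GRCm39 with version v3.2 of the PIPseq pipeline, and the deposited values are raw UMI counts of 32227 genes in each called barcode. The annotation release and the cell-calling setting are not stated. Genes were aligned by Ensembl identifier. The authors' filter was applied: 500 genes and 1000 UMIs or more, with no more than 20% of UMIs mitochondrial. The members, the 13 marker lists and the list of 27 granule genes were chosen with earlier results of these data known.

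CD8-RNA cells hold at least 1 UMI of Cd8a or Cd8b1. Levels are summed counts as CPM, and their 95% intervals are exact Poisson ones. Log2 ratios divide the library labelled Pdcd1 cKO by that labelled Pdcd1fl/fl, with intervals from the conditional binomial, and Clopper-Pearson intervals go with cell shares. A count of 0 was set to 3. A gene was called when it had at least 20 UMIs over both libraries and differed at least 2-fold. Shares, pairs and phi coefficients used cells thinned to 1000 UMIs (seed 1), pairs and splits of cells needed at least 20 cells on each side, and a cell was given a lineage by at least 2 markers. Python 3.11.15 with numpy 2.4.6, scipy 1.17.1, pandas 2.3.3 and matplotlib 3.10.9 was used.

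The genes named are Pdcd1 first, all 9 members, the granule genes at least 2-fold apart and the transcription factors among them, the 5 genes with the highest mean phi for each member read in at least 30 thinned cells of a library, and marker genes whose values stand beside a result. The marker lists were CD8 T, CD4 T, immature thymocyte, gamma-delta T, NK, B cell, macrophage, dendritic, mast, granulocyte progenitor, erythroid, melanoma and stroma.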

Additional observations from a re-analysis of the deposited data

Results flagged for a closer look

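Some members moved in opposite directions in different tissues. The log2 ratio of Gzma (Pdcd1 cKO label over Pdcd1fl/fl label) was higher in the spleen than in the thymus by 3.17 and higher in the tumors than in the thymus by 3.80. That of Gzmm was higher in the spleen than in the thymus by 1.04, and the tumor value minus the spleen value was -2.25. That of the sum of the 9 members was higher in the spleen than in the thymus by 1.82 and in the tumors than in the thymus by 2.09. With 1 library per label and tissue, these differences were not tested.

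Barcodes outside the cell filter held UMIs of the members. In the thymus library labelled Pdcd1 cKO, 39 such barcodes held 58 member UMIs, 52 of them of Gzma. In the spleen library labelled Pdcd1fl/fl, 5451 barcodes with a median of 654 UMIs held 449 member UMIs, 291 of them of Gzmm, at 121 CPM for the 9 genes. In the spleen library labelled Pdcd1 cKO, 35 barcodes held 13. The leading gene of the larger sets was that of the cells kept, Gzma in the thymus and Gzmm in the spleen.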

How the results depend on the processing

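No paired analysis was possible because each label had 1 library per tissue. The sum of the members kept its direction under all alternatives tried, 12 in the thymus, 11 in the spleen and 12 in the tumors. In the thymus (-0.86) it was -1.04 in all filtered cells, -1.31 in cells without CD8 RNA, -0.65 without mitochondrial, ribosomal protein and Malat1 UMIs in the total, -0.68 with a median of ratios, -0.712 as a mean over cells, -0.711 after thinning and -0.23 without Dntt cells, so it was past 2-fold in the first pair. In the spleen (0.96) it was 1.45 under a strict filter (28 and 822 UMIs). In the tumors (1.24) it was 1.56 in all filtered cells, 1.12 with Cd8b1 alone, 2.89 without CD8 RNA, 1.60 without cells holding markers of another lineage, 1.37 with a median of ratios and 0.80 in low-melanoma cells, the last under 2-fold.

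Without CD8 RNA the members at least 2-fold apart numbered 2 in place of 4 in the thymus and 4 in place of 7 in the tumors, where Gzmm, with 4 and 0 UMIs, and Gzmd, with 0 in both, gave no ratio. Prf1 was not counted for want of 20 UMIs, with ratios of 2.84 (1 and 17 UMIs) and 3.26 (4 and 12). Thymic Gzmk reversed in these cells, to -0.57 (-1.42 to 0.32; 20 and 32 UMIs, 9 of the 20 in 1 cell), while its share of cells was 1.67% and 3.40%. For the other moves the cause was not tested.

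Of the ratios of single members, 52 of 65 in the thymus, 62 of 68 in the spleen and 84 of 114 in the tumors stayed within the interval reported. Thymic Gzma ranged from -1.42 to -0.59 and Gzmb from 1.95 to 4.26, splenic Gzma from 1.87 to 4.81, and in the tumors Gzmb ranged from 1.02 to 3.69, Gzmc from -2.12 to -0.25 and Gzmd from 0.16 to 2.77. Gzmc was under 2-fold in all filtered cells (-0.99) and without cells holding other lineage markers (-0.25), and Gzmd after thinning had 0 and 5 UMIs, which gives 0.16 as a lower bound. Of the 7 tumor members past 2-fold, 6 stayed past it with Cd8b1 alone. After thinning, 4 of the 6 that gave a ratio did. Members under 2-fold that changed sign were splenic Gzmm (-0.19) and tumor Gzmf (-0.32; 4 and 1 UMIs) without CD8 RNA and tumor Gzme (-0.07) in low-melanoma cells. The low-melanoma class, the class without Dntt, the removal of the top cell and the thinning to 5000 UMIs were chosen after the data were seen. Depth limits the thymic and splenic values under the label Pdcd1fl/fl most, where Gzmb rests on 10 and 15 UMIs.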
